A study of Homo sapiens with 10 samples.

Results

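Transcripts of 10 S100 genes were followed across 10 arrays of SKBR3 cells: S100A7, S100A8, S100A9, S100A6, S100A10, S100A11, S100A13, S100A14, S100A16 and S100P. The members were taken as listed by name, with every probe set that carried that symbol and no other, which gave 14 probe sets of 10 genes among 41097 such probe sets of 19775 genes on the array. A gene was tested through its probe set of the highest mean signal if that probe set passed the filter on low signals, and 12022 genes, all 10 members among them, did so. A further 10 S100 genes on the array were kept apart for comparison. S100A7 was already known to differ in both main comparisons when the family was chosen, so its tests here are no independent support for those differences. The counts of called members include S100A7 and carry the same limit.

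S100 proteins are small calcium-binding proteins that mostly act as dimers. Calcium binding exposes a surface through which they hold target proteins such as annexins, and several members are secreted and bind receptors on other cells. Many of the genes lie in a cluster on chromosome 1 beside genes of epidermal differentiation. S100A7 (psoriasin), S100A8 and S100A9 are known from inflamed and differentiating epidermis and are also made by some breast carcinomas. S100A8 and S100A9 together form calprotectin, which binds zinc and manganese and is abundant in neutrophils.

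SKBR3 is an established breast carcinoma line with amplified HER2 and mutant p53, and all groups shared this genotype and medium with charcoal-stripped serum. The cells received either p53 siRNA (p53i) or, as negative control, siRNA to the bacterial gene LacZ (LacZi). Each siRNA had 2 untreated arrays, labelled as biological replicates, and 1 array each after 8, 20 and 50 h with 100 nM of the vitamin D hormone calcitriol, called D3 here, so that 5 arrays were LacZi and 5 were p53i. The series text places the start of D3 at 48 h after transfection and the sample text at 24 h. All untreated arrays formed 1 baseline and none was matched in time to a D3 array, so the effect of D3 and that of longer culture cannot be told apart. The siRNA's own target was not analysed here, and the knockdown is therefore taken from the labels. In bulk RNA of this kind, fewer cells expressing a gene and less RNA per cell cannot be told apart.

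The values are MAS5 signals, an intensity for each probe set on a linear scale, and the median signal of an array was between 35.73 and 44.33. All 6 markers of a HER2-amplified luminal line were detected, and ERBB2 lay between 12690 and 19099. Some p53i arrays, though not all, stood apart from the LacZi arrays in 2 further respects. The ACTB control probe sets gave a 3'/5' signal ratio, which grows as RNA is degraded or incompletely labelled, of 3.792 to 5.046 with LacZi and 4.387 to 8.718 with p53i. The p53i array at 50 h stood apart at the bright end, where the median log2 deviation of the 100 brightest genes from their mean was 0.2945, against -0.1567 to 0.08813 on the other 9 arrays. Summed signals of the 6 luminal markers were 67090 to 74292 with LacZi and 76206 to 99710 with p53i.

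The promoters of the members differed in GC share and in whether they held the letters TATAAA. Promoter sequences from RefSeq (GRCh38.p14), the 250 bases before each annotated start, matched all 10 members in 15 entries. They are printed 5' to 3' on the gene's strand for the 3 genes that were called below and, for contrast, for S100A6 and S100P. The differences of S100A6 and S100P did not pass the test in any comparison at the settings used throughout, though some passed in alternatives given below. Capitals mark the TATA motif TATAAA and 4 half-site motifs. The first of these is AGGTCA, the second is AGTTCA, the third is GGGTCA and the fourth is GGTTCA. They were searched on both strands, so some stand as reverse complements. Half-sites of this kind, in pairs 3 bases apart, are the textbook binding pattern of the vitamin D receptor.
S100A7, chr1:153460652-153460901, minus strand: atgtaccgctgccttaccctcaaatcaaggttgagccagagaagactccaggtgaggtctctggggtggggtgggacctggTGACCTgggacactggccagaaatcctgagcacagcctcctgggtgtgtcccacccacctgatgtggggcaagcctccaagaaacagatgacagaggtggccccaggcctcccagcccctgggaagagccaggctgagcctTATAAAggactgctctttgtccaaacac
S100A8, chr1:153391074-153391323, minus strand: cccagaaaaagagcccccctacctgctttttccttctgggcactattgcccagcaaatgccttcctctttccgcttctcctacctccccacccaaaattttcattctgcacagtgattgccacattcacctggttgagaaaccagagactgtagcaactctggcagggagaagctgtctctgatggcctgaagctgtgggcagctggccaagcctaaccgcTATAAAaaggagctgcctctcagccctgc
S100A9, chr1:153357604-153357853, plus strand: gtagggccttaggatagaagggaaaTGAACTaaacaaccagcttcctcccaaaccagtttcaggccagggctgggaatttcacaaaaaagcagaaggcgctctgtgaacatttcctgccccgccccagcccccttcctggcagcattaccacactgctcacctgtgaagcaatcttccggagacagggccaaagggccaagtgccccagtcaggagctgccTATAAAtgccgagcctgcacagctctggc
S100A6, chr1:153535992-153536241, minus strand: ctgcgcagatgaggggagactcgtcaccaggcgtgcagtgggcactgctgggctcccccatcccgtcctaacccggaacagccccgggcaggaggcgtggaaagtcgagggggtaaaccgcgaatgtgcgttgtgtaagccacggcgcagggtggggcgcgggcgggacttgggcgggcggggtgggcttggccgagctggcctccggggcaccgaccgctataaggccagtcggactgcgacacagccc
S100P, chr4:6693628-6693877, plus strand: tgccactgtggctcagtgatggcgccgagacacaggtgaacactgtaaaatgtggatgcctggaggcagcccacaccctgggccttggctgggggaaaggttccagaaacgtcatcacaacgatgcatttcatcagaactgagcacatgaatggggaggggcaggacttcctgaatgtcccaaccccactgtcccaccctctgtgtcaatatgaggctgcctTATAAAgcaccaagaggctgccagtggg

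The letters TATAAA began 28 bases before the start in S100A7 and in S100P, and 29 bases before it in S100A9 and at this start of S100A8, which has 3 entries. In all, 5 of 10 members held TATAAA in at least 1 entry, the fifth being S100A13, against 3563 of 27305 genes in the promoter table. Only these exact letters were searched for, so variants such as tataag, present in the S100A6 and S100A14 promoters, were not counted. At least 1 half-site was present in 6 of 10 members, against 38.8% of genes. In the S100A7 promoter it was TGACCT, 169 to 164 bases before the start, and in that of S100A9 it was TGAACT, 225 to 220 bases before the start. A pair of half-sites 3 bases apart, on either strand, was found in 0 of 10 members and in 0.0732% of genes, which says only that these letters are not in this window. The GC share was 58.8% in the S100A7 promoter and 70.0% in that of S100A6, with a median of 58.0% over all 35116 promoters. On chromosome 1 the members lie in the order S100A10, S100A11, S100A9, S100A8, S100A7, S100A6, S100A16, S100A14 and S100A13, and S100P lies apart on chromosome 4. S100A7 and S100A6 are neighbouring coding genes in this order, and S100A7 differed between the siRNAs where S100A6 did not pass the test, as described next.

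The first comparison asked how siRNA against p53 changed the S100 transcripts, with D3 time taken into account. S100A7, S100A8 and S100A9 fell in p53i cells and no member rose. On the log2(signal + 16) scale the differences were -1.25 for S100A7, -0.79 for S100A8 and -0.91 for S100A9, or 2.38-fold, 1.73-fold and 1.88-fold lower. The other 7 members had differences between -0.02 and 0.23. The call rule, here as elsewhere, was limma's p adjusted by Benjamini-Hochberg over all 12022 tested genes and under 0.05. By it 3 of 10 members were lower, against 3.11% of all tested genes, and 0 were higher, against 3.39%. S100A7, counted here as lower, was already known to differ when the family was chosen. At an unadjusted p under 0.05 the limma counts were 3 lower and 3 higher (S100A11, S100A6 and S100A16), where 22.9% of all tested genes lay under that p in either direction. The median difference of the 10 members was 0.09, and that of all tested genes was 0.00.

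S100A7 encodes psoriasin, a secreted protein first found in psoriatic skin. With LacZi its signal was 766.8 and 1978 in the untreated replicates, 1707 at 8 h, 2952 at 20 h and 4987 at 50 h of D3. With p53i it was 385.2 and 764.3 in the untreated replicates and 627.0, 1129 and 2249 at the same times. At each D3 time the p53i array was the lower one, and the highest untreated p53i array lay just under the lowest untreated LacZi array. Over all 10 arrays the siRNAs overlapped, because the p53i arrays at 20 and 50 h exceeded the lower LacZi untreated array. The p53i minus LacZi difference was -1.16 without D3 and -1.42, -1.37 and -1.14 at 8, 20 and 50 h of D3, lower in 4 of 4 conditions. The pooled difference was -1.25 ± 0.23 (SE, 5 arrays per siRNA, limma adjusted p = 0.00953). The 95% confidence interval ran from -1.74 to -0.76. The adjusted p was 0.0665 when the variance was not modelled on intensity and 0.108 when each of the 8 groups had its own mean, with differences of -1.25 and -1.27.

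S100A8 is one chain of calprotectin. Its signals with LacZi were 11598 and 15924 untreated, 13812 at 8 h, 14345 at 20 h and 17285 at 50 h. With p53i they were 6106 and 7627 untreated, 7644 at 8 h, 8691 at 20 h and 13291 at 50 h. All p53i arrays but the one at 50 h lay below all LacZi arrays. The p53i minus LacZi difference was -0.99 untreated and -0.85, -0.72 and -0.38 at the 3 D3 times. The pooled difference was -0.79 ± 0.11 (SE, limma adjusted p = 0.00266, interval -1.03 to -0.55). A second, dimmer probe set of the gene, with signals of 161.3 to 412.4, gave -0.48 and did not pass the test when each probe set was fitted alone (limma adjusted p = 0.0567).

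S100A9 is the other chain of calprotectin. It read 6408 and 10396 in untreated LacZi cells, then 7246, 7802 and 9554 at 8, 20 and 50 h. In p53i cells it read 4041 and 4907 untreated, then 3511, 3776 and 5777. All p53i arrays lay below all LacZi arrays. The same held for 3.3% of all tested genes, and S100A9 was the 1 member of 10 that did so. The differences were -0.87 untreated and -1.04, -1.04 and -0.72 at the 3 D3 times, and the pooled difference was -0.91 ± 0.12 (SE, limma adjusted p = 0.00163, interval -1.16 to -0.66).

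**Figure D1:**
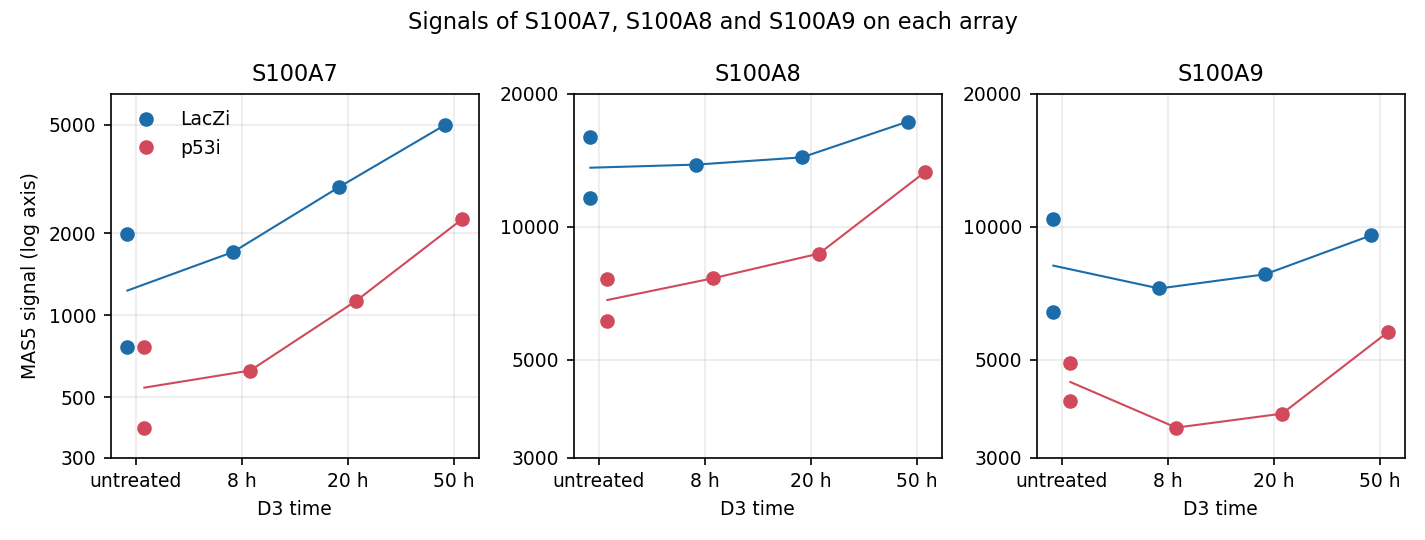
MAS5 signals of S100A7, S100A8 and S100A9 (log axis) on each of the 10 arrays by D3 time, with LacZi in blue and p53i in red, offset sideways to keep points apart; each point is 1 array and lines run from the geometric mean of the 2 untreated arrays. The p53i points lie below the LacZi points at each time in all 3 genes, and S100A7 is at 4987 and 2249 at 50 h, above all earlier points of the same siRNA.

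The calls of S100A8 and S100A9 were kept in all 23 alternative analyses and that of S100A7 in 21 of 23, including all 10 in which 1 array was left out. The alternative that fitted single probe sets followed the tested probe set only. The dimmer S100A8 probe set, which did not pass alone, is thus not counted there. Without the 2 arrays of the highest ACTB ratio the differences were -1.43 for S100A7, -0.83 for S100A8 and -0.93 for S100A9. Quantile normalization gave -1.27, -0.85 and -0.94. In untreated cells alone, where 2 arrays per siRNA carry the comparison, 0 of 10 members passed the test, against 0.00832% of all tested genes. The differences there were -1.16 ± 0.43 for S100A7, -0.99 ± 0.18 for S100A8 and -0.87 ± 0.22 for S100A9 (SE, limma adjusted p = 0.381, 0.248 and 0.309). These 3 genes were also the members at an unadjusted limma p under 0.05, as were 11.5% of all tested genes. The untreated replicates of S100A7 lay far apart, by 1.35 with LacZi and 0.96 with p53i on the log2 scale, and the untreated difference moved with the replicate left out. Without LacZi untreated replicate 1 the 3 genes were at -1.83, -1.22 and -1.22. Without LacZi untreated replicate 2 they were at -0.48, -0.76 and -0.52. Without p53i untreated replicate 1 S100A7 was at -0.68. Each of these fits leaves 1 untreated array of that siRNA, with no spread of its own, so no p-values are given for them.

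In their tested probe sets the other members differed little between the siRNAs. S100A11 (calgizzarin), which binds annexin A1, read 9105 to 10469 with LacZi, median 10254, and 10551 to 13596 with p53i, median 11121. All its p53i arrays lay above all LacZi arrays, as did those of 3.09% of all tested genes, and it was the 1 member of 10 to do so. Its difference of 0.22 ± 0.07 did not pass the test (SE, limma adjusted p = 0.0907), and with arrays centred on their medians it was 0.26 and did (adjusted p = 0.04). S100A6 (calcyclin), a partner of the ubiquitin-pathway adaptor CACYBP, read 21018 to 25674 with LacZi and 22518 to 38672 with p53i, where 38672 was the 50 h array and the next highest 27439. Its difference was 0.23 ± 0.10 (limma adjusted p = 0.169). With the mean of its 2 probe sets in place of the brighter one it was 0.37 and passed (adjusted p = 0.0435). The dimmer one (328.8 to 829.0) gave 0.50 and did not pass when fitted alone (limma adjusted p = 0.0534). S100A16, a widely expressed member, differed by 0.23 ± 0.10 (limma adjusted p = 0.217).

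S100A10 (p11), which does not bind calcium and pairs with annexin A2, read 3507 to 4422 with LacZi and 3308 to 5733 with p53i. Its difference was 0.15 ± 0.11 (SE, limma adjusted p = 0.45). A second, dimmer probe set of S100A10 (187.4 to 450.3) gave 0.03 (limma adjusted p = 0.959 when fitted alone). S100P, a partner of ezrin first isolated from placenta, read 9840 to 10666 with LacZi. With p53i it read 9744 to 11019 on 4 arrays and 15503 at 50 h. Its difference was 0.14 ± 0.08 (limma adjusted p = 0.349). S100A13, known for its part in the release of FGF1, differed by 0.04 with an interval of -0.15 to 0.23. A second, dim probe set of S100A13 (18.42 to 77.84) lay in the other direction, at -0.52, and did not pass either (limma adjusted p = 0.152). S100A14, an epithelial member, read 5915 to 7923 with LacZi and 6470 to 7246 with p53i and differed by -0.02, with an interval of -0.17 to 0.12.

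**Figure D2:**
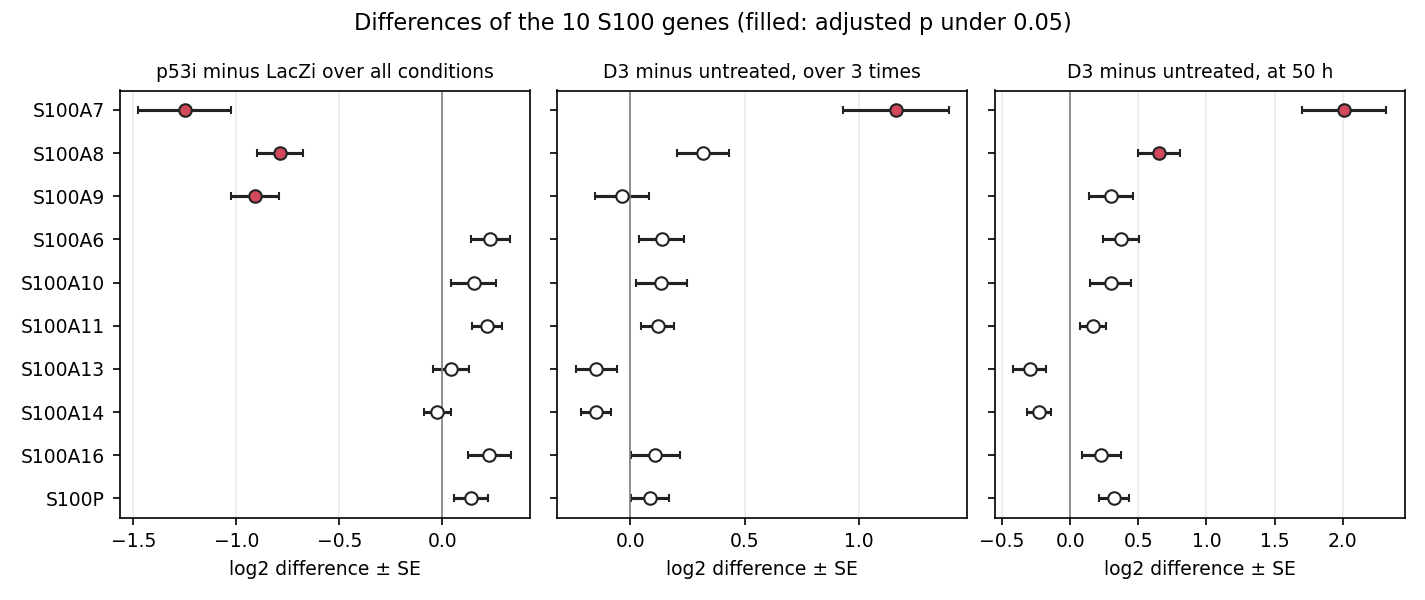
Log2 differences of the 10 S100 genes with their standard errors in 3 comparisons: p53i minus LacZi, D3 minus untreated over 3 times, and D3 minus untreated at 50 h; filled points have a limma adjusted p under 0.05. Filled points are S100A7, S100A8 and S100A9 in the first panel, S100A7 alone in the second, and S100A7 and S100A8 in the third.

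The p53i array at 50 h was the highest of all 10 for S100A6, S100A10, S100A11, S100A16 and S100P. At that time the p53i minus LacZi difference was 0.68 for S100A6, 0.54 for S100P, 0.48 for S100A11, 0.47 for S100A10 and 0.44 for S100A16. In untreated cells the same differences were 0.04, 0.04, 0.16, 0.02 and 0.17. These values are of the tested probe sets. The second, dimmer probe set of S100A6 went the other way, at 0.79 untreated and 0.18 at 50 h. That of S100A10 gave -0.08 untreated and 0.385 at 50 h. The p53i array at 50 h is the one whose brightest genes stood high as a group. After quantile normalization, which gives all arrays the same distribution, the 50 h differences were 0.13 for S100A6, 0.33 for S100P, 0.27 for S100A11, 0.38 for S100A10 and 0.14 for S100A16. Those of S100A7, S100A8 and S100A9 were -1.17, -0.60 and -0.85 after quantile normalization, against -1.14, -0.38 and -0.72 in the deposited values.

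**Figure D3:**
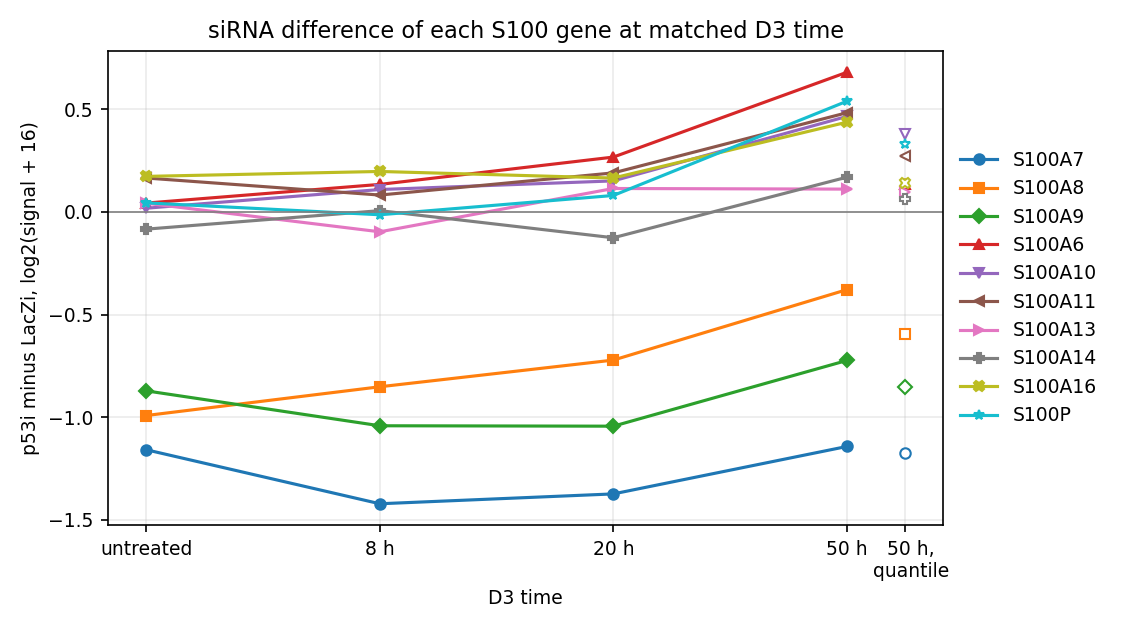
The p53i minus LacZi difference of each S100 gene on the log2(signal + 16) scale at matched D3 time, 1 line per gene, with the 50 h value after quantile normalization as an open symbol on the right; untreated values are differences of means over 2 arrays and the others are of 1 array each. S100A7, S100A8 and S100A9 lie below 0 at all 4 positions, and S100A6 drops from 0.68 to 0.13 at 50 h under quantile normalization.

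The next comparison asked how the S100 transcripts changed with D3. S100A7 rose, by 1.16 on the log2 scale or 2.24-fold over the 3 times, and by 2.01 or 4.03-fold at 50 h. S100A8 rose at 50 h, by 0.65 or 1.57-fold, and no member passed as lower at the settings used throughout. Over the 3 times 1 of 10 members was higher, against 1.99% of all tested genes, and 0 were lower, against 2.41%. The higher member was S100A7, already known to differ when the family was chosen, so this count says nothing about the family. At an unadjusted limma p under 0.05, 2 were higher (S100A7 and S100A8) and 1 was lower (S100A14), a share near the 19.4% of all tested genes under that p. The median difference of the 10 members was 0.11, and that of all tested genes was 0.00. At 50 h 2 of 10 members passed, S100A7 again among them, against 4.31% of all tested genes. At 20 h 0 passed, against 0.591%, and at 8 h 0 passed, against 0.175%. At an unadjusted limma p under 0.05 the counts were 6 at 50 h, 1 at 20 h (S100A7) and 0 at 8 h, against 19.9%, 13.6% and 7.5% of all tested genes.

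In S100A7 the D3 arrays lay above the mean of the untreated arrays of the same siRNA in 6 of 6 cases. The log2 difference from that mean was 0.46, 1.25 and 2.00 at 8, 20 and 50 h with LacZi and 0.20, 1.03 and 2.02 with p53i. The 8 h arrays lay between the untreated replicates with both siRNAs, while the 20 and 50 h arrays lay above them. The untreated replicates lay 1.35 apart with LacZi and 0.96 apart with p53i, a gap of the same size as the pooled D3 difference. Pooled over siRNAs the differences at 8, 20 and 50 h were 0.33, 1.14 and 2.01, each ± 0.31 (SE, limma adjusted p = 0.885, 0.124 and 0.00527). At 50 h the interval ran from 1.34 to 2.68. Over the 3 times it was 1.16 ± 0.23 (limma adjusted p = 0.0184, interval 0.66 to 1.66). That call was lost when any 1 of 5 arrays was left out. The value was 1.12 without the LacZi array at 8 h (adjusted p = 0.0537), 1.14 without that at 20 h (0.0633) and 0.99 without p53i untreated replicate 1 (0.0529). It was 1.19 and 1.14 without the p53i arrays at 20 and at 50 h (0.0544 and 0.0639). The 50 h call was lost without LacZi 50 h (2.08, adjusted p = 0.0641) or p53i 50 h (1.94, 0.126), which leaves 1 array at that time. The 20 h difference passed without LacZi untreated replicate 2 (1.38, adjusted p = 0.0497) or p53i untreated replicate 2 (1.34, 0.0445).

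S100A8 differed by 0.09 ± 0.15 at 8 h, 0.21 ± 0.15 at 20 h and 0.65 ± 0.15 at 50 h (SE, limma adjusted p = 0.957, 0.593 and 0.0345). Within LacZi cells the 50 h array was 0.35 above the untreated mean, less than the gap of 0.46 between the untreated replicates, and within p53i cells it was 0.96 above, where the replicates were 0.32 apart. The 50 h call was kept in 10 of 23 alternatives and in 2 of the 10 that left out 1 array. In both of those the array left out was the second untreated replicate of an siRNA. Without p53i 50 h the difference was 0.40 (adjusted p = 0.455), and without LacZi 50 h it was 0.91 (0.0549). The dimmer S100A8 probe set gave 0.50 at 50 h (limma adjusted p = 0.155 when fitted alone). Over the 3 times S100A8 differed by 0.32 ± 0.11 (adjusted p = 0.138) and passed after quantile normalization, at 0.33 (0.0332), and without LacZi untreated replicate 2, at 0.45 (0.0317).

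S100A9 gave no call with D3. Its differences at 8, 20 and 50 h were -0.26, -0.15 and 0.30, each ± 0.16 (SE, limma adjusted p = 0.796, 0.728 and 0.324). Over the 3 times it was -0.04, with an interval of -0.30 to 0.22, and 2 of 6 D3 arrays lay above the untreated mean of their siRNA. So at 50 h the calprotectin chains had differences of 0.65 and 0.30 on the log2 scale, and the difference between them was not tested.

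The remaining 7 members did not pass the test at any D3 time at the settings used throughout. At 50 h the differences above 0 were 0.37 for S100A6, 0.32 for S100P, 0.30 for S100A10, 0.23 for S100A16 and 0.17 for S100A11 (limma adjusted p between 0.133 and 0.415). These are the genes that stood high on the p53i array at 50 h, and the LacZi array at 50 h lay 0.05, 0.07, 0.07, 0.10 and 0.01 above its untreated mean in the same order. Without LacZi untreated replicate 2 the S100A6 difference was 0.47 and passed (adjusted p = 0.0495), and without LacZi 50 h that of S100P was 0.57 and passed (0.0468). S100A13 and S100A14 lay below the untreated mean at 50 h, by -0.30 ± 0.12 and -0.23 ± 0.09 (SE, limma adjusted p = 0.194 and 0.182). At 50 h S100A13 passed as lower with the ACTB ratio as a covariate, at -0.34 (adjusted p = 0.0499), and S100A14 with arrays centred on their medians, at -0.33 (0.0464). In S100A14 all 6 D3 arrays were below the untreated mean of their siRNA. Its difference over the 3 times was -0.15 (adjusted p = 0.246) and also passed with that centring, at -0.24 (0.0464). The second, dimmer probe sets gave 0.54 for S100A10, 0.009 for S100A6 and -0.26 for S100A13 at 50 h. None of these passed when fitted alone (limma adjusted p = 0.343, 0.987 and 0.651).

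The difference between 50 and 8 h was then tested directly. It was 1.68 ± 0.36 for S100A7, 0.56 ± 0.18 for S100A8 and 0.56 ± 0.18 for S100A9 (SE, limma adjusted p = 0.124, 0.344 and 0.371). By this test 0 of 10 members passed, against 0.133% of all tested genes, and 5 had an unadjusted limma p under 0.05, each higher at 50 h, against 9.62% of all tested genes. Of these, S100A6 had a difference of 0.42, while its second, dimmer probe set lay the other way, at -0.57 (limma adjusted p = 0.491 when fitted alone). Without LacZi untreated replicate 1, S100A7 passed, at 1.68 (adjusted p = 0.0496).

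**Figure D4:**
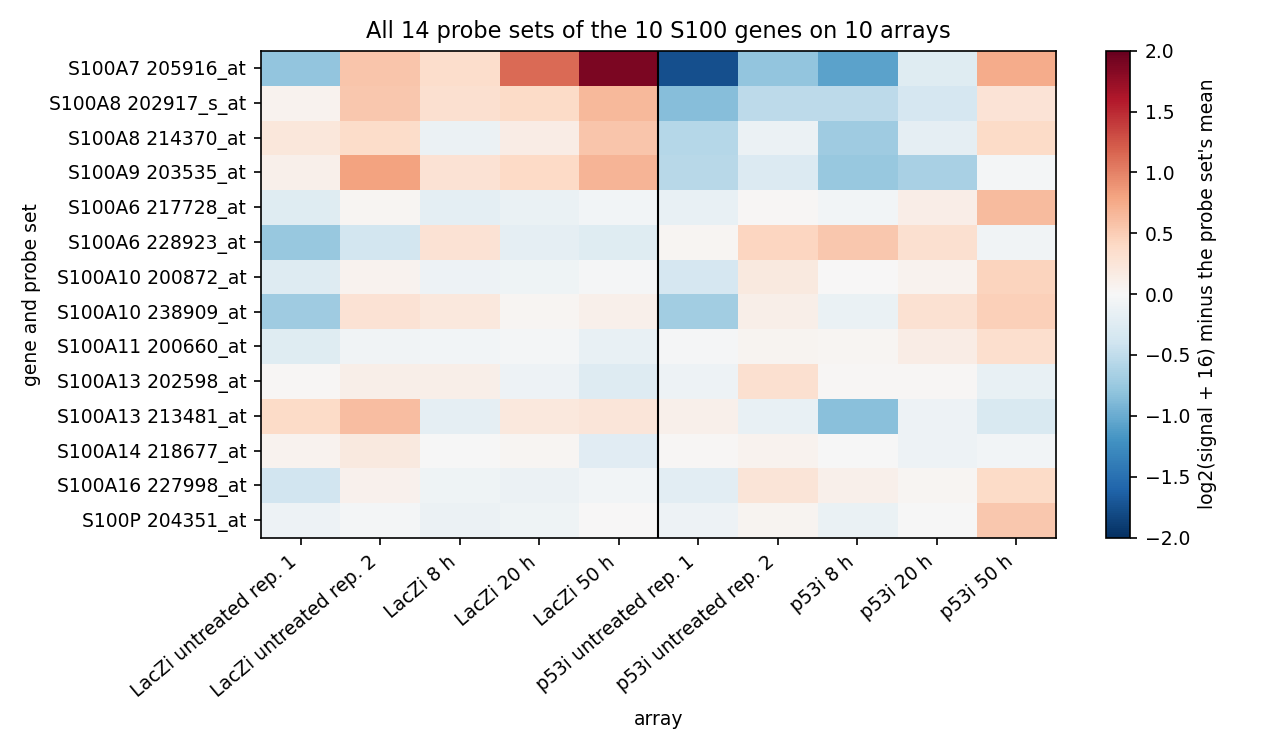
Colour map of log2(signal + 16) minus each probe set's mean for all 14 probe sets of the 10 S100 genes (rows) on the 10 arrays (columns), with LacZi on the left and p53i on the right of the line. S100A7 runs from its lowest signal, 385.2 in p53i untreated replicate 1, to its highest, 4987 in LacZi 50 h, while S100A8 and S100A9 are mostly lower on the right.

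The last comparison asked whether the response to D3 differed between the siRNAs. In S100A7 the mean D3 difference was 1.24 ± 0.34 with LacZi and 1.08 ± 0.34 with p53i (SE, limma adjusted p = 0.177 and 0.158). The difference between these responses was -0.15 ± 0.48 (limma adjusted p = 0.977), with an interval of -1.21 to 0.90, so that a sizeable difference in either direction was not detectable with these arrays. For S100A8 the responses were 0.15 with LacZi and 0.49 with p53i, and they differed by 0.34 ± 0.21 (adjusted p = 0.909, interval -0.13 to 0.81). For S100A9 they differed by -0.06 ± 0.25 (adjusted p = 0.983). By this test 0 of 10 members passed, against 0.0% of all tested genes, and 0 members had an unadjusted limma p under 0.05, against 5.37% of all tested genes. Within LacZi cells alone 0 members passed, against 0.391% of tested genes, with 1 at an unadjusted limma p under 0.05 where 11.9% of tested genes lay. Within p53i cells 0 passed, against 0.541%, with 3 at that unadjusted p where 15.1% lay.

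Across the 10 arrays S100A8 and S100A9 ran together (Pearson r = 0.909), S100A7 followed S100A8 (0.907) and, less closely, S100A9 (0.775). Such closeness was not particular to these genes: r was 0.944 for S100A6 with S100P and 0.94 for S100A10 with S100A16. Each of these 4 genes had its highest signal on the p53i array at 50 h, for example 38672 in S100A6 and 15503 in S100P. How far that array carries their r was not tested. These correlations are descriptions over arrays that share siRNA and D3 time. By rank of likeness to S100A7 among 12021 genes, S100A8 stood at 19 and S100A9 at 233, and the other members had r between -0.43 and 0.37. The 5 genes most like S100A7 were MDFIC (r = 0.981, rho = 0.964), AKR1B10 (0.979, 0.939), SEMA3C (0.963, 0.939), DNM1L (0.957, 0.988) and HECTD3 (0.949, 0.952), each over 10 arrays. AKR1B10, an aldo-keto reductase, had a siRNA difference of -0.78 and a D3 difference of 0.96. SEMA3C, a secreted semaphorin, had -0.53 and 0.77. As these genes were picked for their likeness to S100A7 over the same arrays, such differences follow from the choice and are given as a description. DNM1L, which divides mitochondria, reached its correlation with differences of only -0.10 and 0.09.

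Of the 10 other S100 genes on the array, 5 passed the filter. S100A3, a protein of the hair cuticle, fell with p53i by 0.75 ± 0.20 (SE, limma adjusted p = 0.0434). It was the 1 of 5 that passed, where 6.5% of all tested genes did so in either direction. Its signals were low (36.44 to 149.8). S100A4, the metastasis-associated member, read 6774 to 8589 and differed by 0.16 (adjusted p = 0.188). S100A2, S100A5 and S100A12 did not pass either, and none of the 5 passed with D3. S100A1, S100B, S100G, S100Z and S100A7A, the closest relative of S100A7, were below the filter. S100G, calbindin-D9k, a known vitamin D target of the intestine, read 1.2 to 16.9.

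Of 22 genes of receptors and binding partners of S100 proteins, 16 were tested. With p53i 3 of 16 fell, against 3.11% of all tested genes, and 1 rose, against 3.39%. Annexin A1 (ANXA1), the partner of S100A11, fell by 1.59 ± 0.21, FABP5, the epidermal fatty acid carrier that binds S100A7, by 1.08 ± 0.16, and AHNAK, a scaffold bound by S100A10 with annexin A2, by 0.83 ± 0.07 (SE, limma adjusted p = 0.00169, 0.00356 and 0.000119). The FABP5 signals were low (45.27 to 150.8). Annexin A2 (ANXA2) rose by 0.42 ± 0.10 (adjusted p = 0.0325). With D3 1 of 16 rose, against 1.99% of all tested genes, and 0 fell, against 2.41%. The one that rose was TRPV6, a calcium channel brought to the membrane by S100A10 with annexin A2 and a known vitamin D target. TRPV6 rose by 1.55 ± 0.15 (limma adjusted p = 0.000357). The receptors AGER and TLR4, through which secreted S100A8 and S100A9 act, were below the filter. The median differences over the 16 genes were -0.03 with p53i and 0.03 with D3.

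Of the 21 genes of the epidermal differentiation complex on the array, apart from the S100 genes, 6 were tested. Involucrin (IVL), a protein of the cornified envelope, fell with p53i by 0.72 ± 0.17 (SE, limma adjusted p = 0.03). It was the 1 of 6 called as lower, against 3.11% of all tested genes, and 0 of the 6 passed with D3. Filaggrin (FLG) and loricrin (LORICRIN) were below the filter. Of 7 squamous keratinocyte markers on the array, 2 were tested, and KRT5 rose with D3 by 1.59 ± 0.29 over the 3 times and by 2.44 ± 0.39 at 50 h (limma adjusted p = 0.0133 and 0.00566). The other, KRT10, read 5833 to 7850 and did not pass with D3. It differed by -0.008 over the 3 times and -0.13 at 50 h (limma adjusted p = 0.97 and 0.533). KRT5 signals were low, between 2.397 and 191.5, and KRT14, KRT1 and KRT16 were below the filter. The summed signal of the list, mostly KRT10, was 6844 to 8074 with LacZi and 6059 to 7601 with p53i.

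Of 10 markers of myeloid cells and neutrophils, a known source of S100A8 and S100A9, 4 were tested, and PTPRC, CD14, LYZ, FCN1, CD163 and FCGR3B were below the filter. Their summed signal was 427.8 to 726.5 with LacZi and 325.6 to 578.0 with p53i, and 0 passed in the siRNA comparison. CSF3R passed with D3, at 0.82 ± 0.19 over the 3 times and 1.01 ± 0.26 at 50 h (SE, limma adjusted p = 0.0347 and 0.0476). It was the 1 of 4 called as higher over the 3 times, against 1.99% of all tested genes, and its signals were low (49.57 to 259.9). Of the 6 luminal markers, KRT8 and GRB7 rose with p53i by 0.42 and 0.38 (limma adjusted p = 0.00399 and 0.0324), where 3.39% of all tested genes were called as higher. With D3 0 of the 6 passed. Among fibroblast markers COL1A1 and among endothelial markers PECAM1 were tested, and neither passed in either comparison. The part of these markers in the S100 differences was not tested.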

How the data were processed

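RNA of 10 SKBR3 samples was hybridised to 1-colour Affymetrix arrays, labelled as cRNA per the labels' protocols. The deposited table holds 1 intensity per probe set and array. They are MAS5 signals per the submitters' processing notes (version not given in the sources used here). Without its lowest and highest 2%, each array had a mean of 200.0, a scaling already present in the deposited intensities, and nothing further was applied. Of 54675 probe sets, 41097 had 1 gene symbol in the platform annotation and were used, 1801 had several and 11777 had none here. Symbols were checked against RefSeq by gene ID, which changed 0 of them, and 42 were kept as annotated. No column of the table was left out.

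Signals were taken as log2(signal + 16), which understates changes of dim genes. Each gene was represented by its probe set of the highest mean, and genes were kept when that mean reached the median of all probe sets (a signal of 35.41). limma 3.58.1 in R 4.3.3 (lmFit, eBayes with an intensity trend) fitted siRNA plus D3 time over all 10 arrays, which leaves 5 residual degrees of freedom. An added siRNA-by-D3 term gave the difference in response and the D3 effect within each siRNA. Means of the 8 groups gave the contrast in untreated cells. Two-sided p-values were adjusted by Benjamini-Hochberg over the genes kept, and single probe sets were fitted over the 22031 kept ones. The scripts were tested on simulated data. The untreated replicates are labelled biological. No label says whether D3 arrays came from separate cultures, so p-values measure the spread between these samples. Only untreated cells had replicate arrays. The fit of siRNA plus D3 time therefore also counts as spread any difference between the siRNAs that varies with D3 time. The p53i array at 8 h is spelled otherwise in its title and was grouped by its siRNA label.

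The 10 members were fixed by name. Other lists are given by counts, with values for genes past the threshold, at most 4 per list, and a few further genes named for their role. The 5 genes most like S100A7 were chosen by Pearson r. The members and lists were chosen with earlier results of these data known. The number of arrays limits the precision.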

Additional observations from a re-analysis of the deposited data

How the results depend on the processing

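The alternatives changed the signal offset, filter, choice of probe set, scaling, variance model, fit and arrays used. S100A8 and S100A9 kept their lower signal with p53i in all 23, and the siRNA-by-D3 comparison had 0 members called throughout. For D3 over the 3 times, where 1 member was called, quantile normalization and median centring gave 2, and the fits with no intensity trend or with group means gave 0. At 50 h, where 2 were called, no filter, the mean of probe sets and leaving out the 2 arrays with the highest ACTB ratio gave 1, no intensity trend and group means gave 0, and median centring and the ACTB ratio as a covariate gave 3, with S100A14 and S100A13 added as lower. With 1 array left out in turn, the count ranged from 0 to 2 over the 3 times, 0 to 1 at 20 h, 0 to 3 at 50 h, 0 to 1 between 50 and 8 h and 0 to 3 in untreated cells. The range in untreated cells rests in part on fits that leave 1 untreated array of an siRNA. The numbers of the untreated replicates were not shown to pair the arrays: their deviations correlated at 0.216 over genes in the 2 pairs. In the tested probe set of each member, replicate 2 was nevertheless above replicate 1 with both siRNAs. With LacZi and p53i the gap was 1.349 and 0.96 in S100A7 and 0.131 and 0.042 in S100A14. The median deviation of the 100 brightest genes also rose, from -0.1567 to 0.08433 with LacZi and from -0.08741 to 0.08813 with p53i. With the replicate number as a block (replicate block) the members called were 4 with siRNA, where 3 were called without it, 2 over the 3 D3 times, 1 at 20 h, 2 at 50 h, 1 between 50 and 8 h and 3 in untreated cells. The fourth member with siRNA was S100A16 (0.23, limma adjusted p = 0.0264).

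Only uncalled differences changed sign. With siRNA, S100A13 was -0.24 with the mean of probe sets, -0.12 with the ACTB ratio as a covariate and -0.066 without the 2 arrays of the highest ratio, and S100A14 was 0.021 with median centring and 0.010 without those arrays. Over the 3 D3 times S100A9 was 0.040 without those arrays, and S100P was -0.0039 with median centring. S100A8 at 8 h was -0.15 with the mean of probe sets. The siRNA-by-D3 difference was 0.10 and 0.36 for S100A7 and 0.0081 and 0.13 for S100A9 with the covariate and without those arrays. With 1 array left out, the siRNA difference ranged from -0.025 to 0.11 for S100A13 and -0.072 to 0.0055 for S100A14, and S100A9 over the 3 D3 times from -0.18 to 0.091. S100A8 at 8 h ranged from -0.0076 to 0.22, and the siRNA-by-D3 difference from -0.83 to 0.52 for S100A7 and -0.41 to 0.28 for S100A9.

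Over all genes the siRNA count of 781 ranged from 51 with group means to 1303 with the replicate block, and the D3 count of 529 from 52 to 955. The counts ranged from 1 to 56 at 8 h (21), 5 to 280 at 20 h (71), 43 to 960 at 50 h (518), 0 to 74 between 50 and 8 h (16), 0 to 62 for the siRNA-by-D3 difference (0) and 0 to 561 in untreated cells (1). Median centring moved the median of all genes at 50 h from -0.01 to -0.11, and the share of calls that were higher from 52.1% to 72.5% with siRNA, from 45.2% to 21.2% with D3 and from 42.5% to 21.7% at 50 h. It was 36.8% at 20 h and 64.3% at 8 h, against 60.6% and 81%. The cause of these changes was not tested. Dim probe sets, such as that of S100A13, lie near background, where MAS5 signals are noisy.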
